A study of Mus musculus with 7 samples.

Results

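Genes of T cell costimulation, immune checkpoint signalling and dendritic cell maturation were followed across macrophages with and without the enzyme transglutaminase 2. They were chosen by name, as the costimulatory and checkpoint ligands and maturation genes of the deposited tables: Cd40, Cd80, Cd86, Cd83, Cd274, Pdcd1lg2, Icosl, Fscn1 and Ccr7. All 9 were present among the 23337 genes of each table. Bone marrow of male wild-type (WT) and Tgm2 knockout (KO) mice aged 6 to 8 weeks was grown for 7 days with M-CSF, the macrophage growth factor, at 25 ng/ml to give bone marrow-derived macrophages. These were left without stimulus (M0) or given bacterial lipopolysaccharide (LPS) at 10 ng/ml for 6 hours. There were 7 RNA-seq libraries: 2 each for WT M0, WT LPS and KO LPS, and 1 for KO M0. The knockout allele, the strain background, whether mice were pooled and whether replicates came from separate mice were not given in the sources used here, so p-values measure only the spread between these libraries, which may be technical.

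A T cell needs, besides antigen, a second signal from the cell that presents it. CD80 and CD86 give that signal through CD28 and are also bound by the inhibitory receptor CTLA-4, and ICOS ligand, encoded by Icosl, engages ICOS on activated T cells. PD-L1, encoded by Cd274, and PD-L2, encoded by Pdcd1lg2, engage the inhibitory receptor PD-1. CD40 receives CD40 ligand from helper T cells and signals through TRAF adaptors to NF-κB in the presenting cell. CD83, the actin-bundling protein fascin (Fscn1) and the lymph node homing receptor CCR7 are classical marks of dendritic cell maturation, and in macrophages several of these genes respond to LPS.

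Values were read as TPM, a length-corrected share of each library's transcripts, from their totals and steps, as the tables do not name their unit. Levels of different genes are set side by side on that reading. Tests were made with limma on log2(TPM + 1) over the 11096 genes whose TPM averaged at least 1, with p-values adjusted by the Benjamini-Hochberg method over all of them. A change was called at an adjusted p under 0.05. Of the 9 genes 8 were tested. Pdcd1lg2 lay below the filter, and Ccr7, with a mean of 1.10 TPM, passed it only through its values under LPS. Counts of called genes are therefore given over the other 7, and Ccr7 and Pdcd1lg2 are described by their values and by the fit with no filter. All log2 changes refer to log2(TPM + 1), where the added 1 shrinks changes of genes at low level, and intervals are 95% intervals from limma.

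Tgm2 itself was lower in every KO library than in every WT library: 433 and 368 TPM in WT M0, 50.7 TPM in KO M0, 233 and 199 TPM in WT LPS, and 19.4 and 19.2 TPM in KO LPS. All 10 macrophage markers exceeded 1 TPM in every library. Their summed level was between 39025 and 53747 TPM, most of it Lyz2, at 28492 to 42151 TPM. Of 14 dendritic cell identity markers, between 3 and 6 exceeded 1 TPM in a library and their sum stayed between 18.1 and 32.9 TPM, with Flt3 and Zbtb46 below 1 TPM everywhere. The words dendritic-like are thus used of the genes and not of the cells. The WT LPS libraries stood apart from the label male: Xist, transcribed from the inactive X chromosome of females, was at 47.2 and 55.4 TPM there and at most 0.00535 TPM in the other 5 libraries. The Y-linked genes looked at were all lower there. Ddx3y was at 20.3 and 23.5 TPM against 32.2 to 56.4 TPM, and Eif2s3y at 32.8 and 37.2 TPM against 66.1 to 78.3 TPM. Kdm5d was at 3.42 and 5.00 TPM against 8.75 to 14.5 TPM, and Uty at 3.55 and 5.96 TPM against 7.35 to 12.4 TPM. Every comparison that uses WT LPS carries this difference, and its part in the results was not tested.

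Before LPS, the 9 genes fell in 1 order of level in both genotypes down to Fscn1. Cd83 was highest, at 230.4 and 260 TPM in WT M0 and 239 TPM in KO M0, followed by Cd86, Icosl, Cd40, Cd274, Cd80 and Fscn1. In WT M0 the ranges of neighbours in this order did not overlap down to Fscn1. Ccr7 and Pdcd1lg2 were below 0.4 TPM in WT M0 and listed at 0 in KO M0. Cd83 and Cd86 together made most of the summed level, with Cd83 at 43.7% to 45.2% and Cd86 at 25.4% to 30.8% of it in the 3 M0 libraries. Cd274 made 4.43% to 4.93%.

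LPS replaced this order. Cd274 came first in all 4 LPS libraries, with 42.2% to 62.2% of the summed level, and Cd40 second, with 22.4% to 31.6%. Cd83 dropped to 1.18% to 1.96%. The sum of the 9 genes was 527 to 575 TPM in the M0 libraries, 813 and 914 TPM in WT LPS and 1169 and 1210.1 TPM in KO LPS. The order below Cd40 differed by genotype: in WT LPS the next genes were Cd86, Icosl and Fscn1, and in KO LPS they were Fscn1, Icosl and Cd86. Fscn1 and Icosl overlapped in KO LPS, at 99.2 to 135 TPM and 81.3 to 104 TPM, and Ccr7 and Pdcd1lg2 overlapped in WT LPS.

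In WT macrophages these 7 genes all changed with LPS, 3 up and 4 down, where 44.6% of all tested genes were called, 15.0% up and 29.6% down. In KO macrophages 7 of 7 were called, 4 up and 3 down, where 38.1% of all tested genes were called, 13.8% up and 24.3% down. The median log2 change of the 7 genes was -1.01 in WT, beside -0.21 over all genes tested, and 0.68 in KO, beside -0.24. In both genotypes that median was the value of Icosl alone, and the rest of the 7 genes kept their direction. The shift of the median is therefore not a shift of the set. Scaling by median ratios moved the median over all genes to -0.01 in both genotypes, and turned the split of all calls from 1665 up and 3284 down to 2416 and 2348 in WT, and from 1533 and 2700 to 2104 and 1854 in KO. No called change of the 7 genes reversed under that scaling. The KO comparison rests on the single KO M0 library, which was assumed to vary like the other groups. As these are bulk samples, fewer cells of a type and less RNA per cell cannot be told apart.

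Markers of other cell types moved with LPS as well. The summed level of the neutrophil list went from 20.5 to 23.3 TPM in the M0 libraries to 155 to 413 TPM with LPS, with 2 and then 3 of its 8 measured genes above 1 TPM. The stromal and endothelial sum went from 26.0 to 47.3 TPM to 3.93 to 10.4 TPM, with 4 to 6 and then 1 to 3 of 8 genes above 1 TPM. The T and NK cell sum went from 11.8 to 14.9 TPM to 1.69 to 2.32 TPM, and the B cell sum from 103 to 129 TPM to 80.5 to 96.4 TPM. The dendritic cell identity sum went from 18.1 to 21.3 TPM to 27.3 to 32.9 TPM. The macrophage sum, mostly Lyz2, was 49224 to 53747 TPM in the M0 libraries and 39025 to 42121 TPM with LPS. The part of these values in the LPS changes was not tested.

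The CD28 ligands fell. Cd86 was at 134 and 177 TPM in WT M0 and 163 TPM in KO M0, against 43.3 and 49.8 TPM in WT LPS and 43.6 and 63.8 TPM in KO LPS. Every LPS library was below every M0 library. Its mean was 3.34-fold lower with LPS in WT (log2 change -1.71, SE 0.21, adjusted p = 0.000106 by limma) and 3.03-fold lower in KO (log2 change -1.61, SE 0.26, adjusted p = 0.0008). Both genes are on chromosome 16, Cd86 at chr16:36603869-36666081 on the minus strand and Cd80 at chr16:38455561-38496335 on the plus strand (GENCODE M21, GRCm38). Cd80 was at 15.2 and 14.4 TPM in WT M0 and 19.6 TPM in KO M0, then 5.32 and 8.53 TPM in WT LPS and 6.30 and 10.1 TPM in KO LPS. The groups with and without LPS did not overlap. The log2 change of Cd80 was -1.03 in WT (SE 0.26, adjusted p = 0.00855) and -1.19 in KO (adjusted p = 0.0133). Without a filter on low values both calls were lost (adjusted p = 0.0609 and 0.0785). The WT call was also lost without WT M0 replicate 1 (0.0661) or WT LPS replicate 1 (0.0747), and the KO call without KO LPS replicate 1 (0.0655). Cd86 exceeded Cd80 in each library, by 5.84-fold to 12.3-fold.

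With LPS the PD-1 ligands stood at opposite ends of the range, while before it Cd274 lay in the middle. Cd274 was at 25.9 and 25.5 TPM in WT M0 and 26.8 TPM in KO M0, and at 546 and 506 TPM in WT LPS and 493 and 595 TPM in KO LPS. The M0 libraries lay close together, and each LPS library was far above all of them. Mean TPM was 20.5-fold higher with LPS in WT (log2 change 4.30, SE 0.16, adjusted p = 2.78e-08) and 20.3-fold higher in KO (log2 change 4.29, SE 0.19, adjusted p = 2.35e-07). This was the 59th largest rise among 11096 genes in WT and the 81st in KO. Pdcd1lg2 was at 0.0842 and 0.217 TPM in WT M0, listed at 0 in KO M0, and at 0.679 and 0.677 TPM in WT LPS and 0.610 and 0.478 TPM in KO LPS. It remained the lowest of the 9 genes in both LPS groups. With the filter on low values removed, its rise in WT had a log2 change of 0.547 (adjusted p = 0.00964 by limma).

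Cd274 and Pdcd1lg2 are neighbours on chromosome 19 (GENCODE M21, GRCm38): Cd274 spans chr19:29367455-29388095 and Pdcd1lg2 chr19:29410919-29471161, both on the plus strand, 22824 bp apart. The kinase gene Jak2, 54375 bp from Cd274 and named after its values were seen, rose from a mean of 99.7 TPM in WT M0 to 465 TPM in WT LPS, and from 115.7 TPM to 496 TPM in KO. Antisense genes overlap both ligand genes, AC119228.1 in Cd274 and A930007I19Rik in Pdcd1lg2, and whether counting used strand was not given in the sources used here. The balance of Cd274 to the CD28 ligands turned over with LPS. The ratio of Cd274 to the sum of Cd80 and Cd86 was 0.173 and 0.133 in WT M0 and 0.147 in KO M0. With LPS it was 11.2 and 8.67 for WT, 9.88 and 8.06 for KO. The LPS ranges of the genotypes overlapped.

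Cd40, at chr2:165055627-165072948 on the plus strand, encodes a receptor of the presenting cell. It was at 51.6 and 36.0 TPM in WT M0 and 34.6 TPM in KO M0. With LPS it was at 243 and 182 TPM in WT and 370 and 343 TPM in KO, and all 4 LPS libraries lay above all M0 libraries. The mean was 4.85-fold higher in WT (log2 change 2.26, SE 0.21, adjusted p = 1.08e-05) and 10.3-fold higher in KO (log2 change 3.33, SE 0.25, adjusted p = 4.56e-06).

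Among the maturation genes, Cd83 (chr13:43784775-43803132, plus strand) fell. It was at 230.4 and 260 TPM in WT M0, 239 TPM in KO M0, 17.9 and 12.4 TPM in WT LPS and 14.3 and 14.3 TPM in KO LPS. The mean was 16.2-fold lower with LPS in WT (log2 change -3.95, SE 0.19, adjusted p = 1.64e-07) and 16.7-fold lower in KO (log2 change -3.97, SE 0.23, adjusted p = 1.11e-06). It was the 19th largest fall among 11096 genes in WT and the 28th in KO. Across libraries Cd40 and Cd83 changed places: their ratio was 0.139 to 0.224 in the M0 libraries, 13.6 and 14.6 with LPS for WT, and 25.8 and 24.1 with LPS for KO.

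Fscn1 (chr5:142960343-142973185, plus strand) rose. It was at 5.90 and 5.61 TPM in WT M0 and 4.30 TPM in KO M0, and at 26.2 and 25.9 TPM in WT LPS and 135 and 99.2 TPM in KO LPS. The log2 change with LPS was 2.00 in WT (SE 0.19, adjusted p = 1.62e-05) and 4.46 in KO (SE 0.24, adjusted p = 5.9e-07), which as ratios of mean TPM is 4.53-fold and 27.2-fold. Ccr7 (chr11:99144196-99155077, minus strand) was at 0.388 and 0.115 TPM in WT M0, and listed at 0 in KO M0. With LPS it reached 1.40 and 0.417 TPM for WT, 3.02 and 2.33 TPM for KO. WT LPS replicate 2 lay close to WT M0 replicate 1, and both KO LPS libraries were above all others. In the fit with no filter on low values, the log2 change in WT was 0.57 (adjusted p = 0.212 by limma). In KO that fit gave an adjusted p of 0.0224, against a single library listed at 0, so no fold is given.

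Icosl (chr10:78069302-78083913, plus strand) moved in opposite directions in the 2 genotypes. It was at 63.3 and 55.9 TPM in WT M0 and 57.1 TPM in KO M0, then at 30.2 and 27.9 TPM in WT LPS and 104 and 81.3 TPM in KO LPS. WT LPS lay below, and KO LPS above, all M0 libraries. The mean fell 2.06-fold in WT (log2 change -1.01, SE 0.18, adjusted p = 0.000963) and rose 1.62-fold in KO (log2 change 0.68, SE 0.22, adjusted p = 0.0303). The call in KO was lost when the filter on low values was removed (adjusted p = 0.0594), with the KO groups fitted alone (0.0698), and without KO LPS replicate 1 (log2 change 0.50, adjusted p = 0.137). With the WT LPS libraries left out of the fit, the log2 change in KO was 0.68 (adjusted p = 0.0456) and that of Fscn1 4.46 (adjusted p = 9.29e-07).

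**Figure D1:**
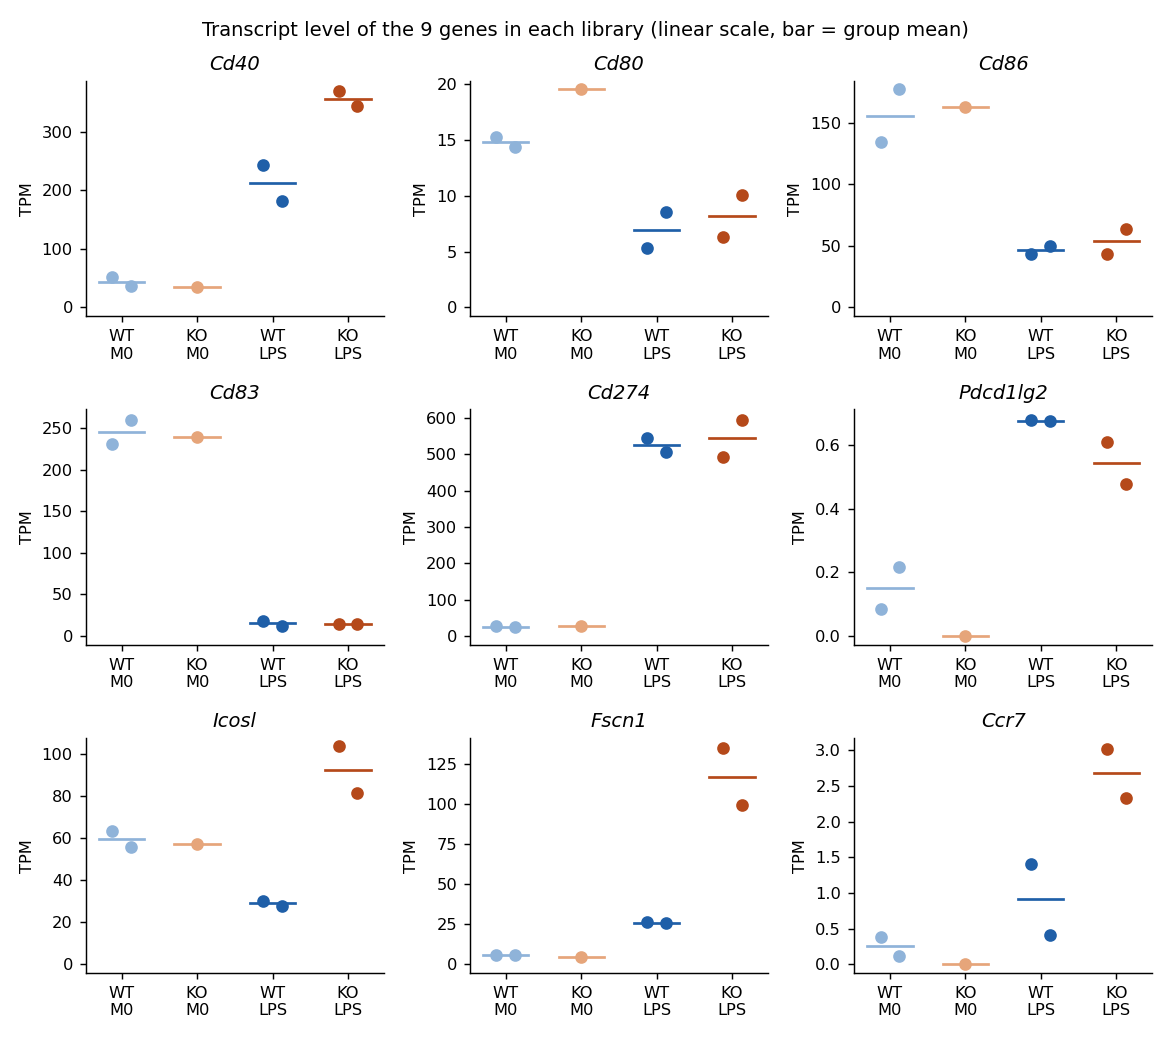
TPM of each of the 9 genes (1 panel per gene, linear vertical axis) by group, 1 point per library and a bar at the group mean. Cd274, Cd40 and Fscn1 are higher and Cd83, Cd86 and Cd80 lower in all LPS libraries than in all M0 libraries, and Icosl is lowest in WT LPS (30.2 and 27.9 TPM) and highest in KO LPS (104 and 81.3 TPM).

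**Figure D2:**
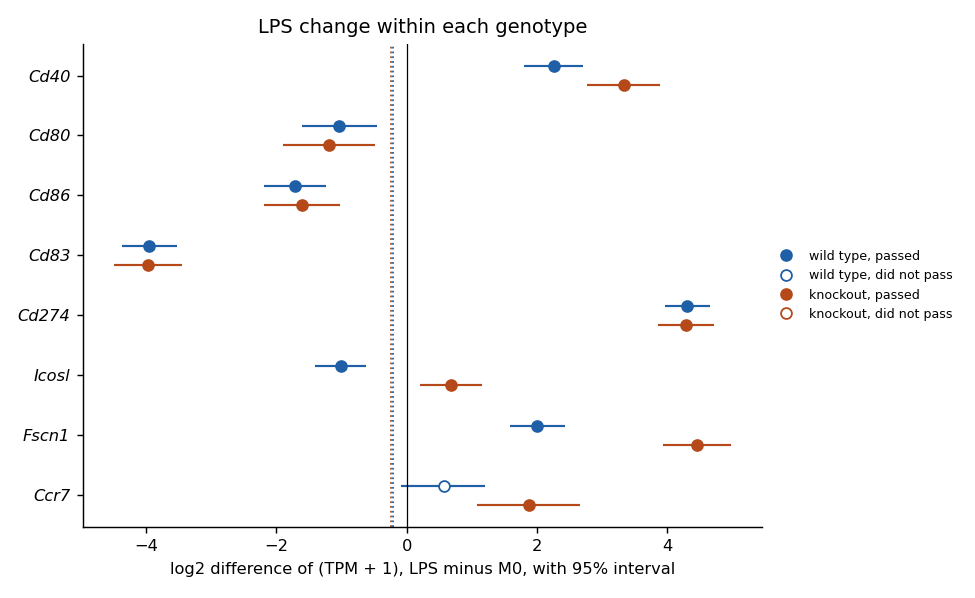
Log2 change with LPS (horizontal axis, log2(TPM + 1) scale) of the 8 tested genes in WT and in KO, with 95% intervals from limma. Filled points passed an adjusted p of 0.05, open points did not, and dotted lines mark the median of all tested genes, -0.21 in WT and -0.24 in KO. Ccr7 entered the test only through its LPS values. Cd83 and Cd274 lie at nearly equal values in both genotypes and Fscn1, Icosl and Cd40 lie further to the right in KO.

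Between the genotypes under LPS, Fscn1 and Icosl were the 2 of 7 genes called, both higher in KO, where 7.16% of all tested genes were called, 4.59% higher and 2.58% lower. Fscn1 was 4.49-fold higher by mean TPM in KO LPS than in WT LPS (log2 difference 2.11, SE 0.19, interval 1.68 to 2.54, adjusted p = 0.000159 by limma), the 51st largest rise. Icosl was 3.19-fold higher (log2 difference 1.63, SE 0.18, interval 1.24 to 2.02, adjusted p = 0.000385), the 126th largest. The lower KO LPS library exceeded the higher WT LPS library for both, by 99.2 to 26.2 TPM for Fscn1 and by 81.3 to 30.2 TPM for Icosl. Both calls held under all 14 alternatives run.

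The promoters of these 2 genes are shown because they carry the difference between genotypes under LPS. They are from RefSeq, GRCm38.p6, plus strand, 5′ to 3′, cut where annotated exons begin. Capitals mark motif matches. The first spans chr5:142960105-142960342, and the second chr10:78069118-78069301, which holds no match.
Fscn1: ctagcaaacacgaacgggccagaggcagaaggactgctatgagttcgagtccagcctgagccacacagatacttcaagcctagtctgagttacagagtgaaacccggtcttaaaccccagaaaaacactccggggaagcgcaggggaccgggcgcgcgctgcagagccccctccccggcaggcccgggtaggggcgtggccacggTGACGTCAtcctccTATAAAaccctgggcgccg
Icosl: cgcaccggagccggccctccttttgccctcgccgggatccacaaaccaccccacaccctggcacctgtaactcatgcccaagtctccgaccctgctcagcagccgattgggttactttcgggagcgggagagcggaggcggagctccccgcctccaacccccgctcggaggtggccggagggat
The RefSeq table held promoters for 5 of the 9 genes and lacked Cd40, Cd86, Cd83 and Ccr7. The 250 bases before each start were searched for 6 motifs, on both strands except for the TATA box, which was searched on the gene's strand. They were the NF-κB site named kappaB, the interferon-stimulated response core (ISRE core, by name), the STAT site TTCNNNGAA, the AP-1 site TGANTCA, the cyclic AMP response element TGACGTCA and the TATA box TATAAA. Fscn1 held TGACGTCA 45 to 38 bases before its start and TATAAA 31 to 26 bases before it. Of 32851 promoters, 1.55% held the former and 7.59% the latter. Cd80 held an AP-1 match, TGATTCA, found in 6.75% of promoters for the motif, and Pdcd1lg2 a kappaB match, GGGGAATCCC, found in 3.90%. Icosl and Cd274 held none of the 6, where 66 and 185 of their 250 bases lay inside annotated exons. The start used for Cd80, chr16:38458933, lies inside the gene span given above. The interferon core and the STAT site, at 2.98% and 7.02% of promoters, matched none of the 5 genes.

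Cd40 and Ccr7 were also at higher values in both KO LPS libraries than in both WT LPS libraries, and neither difference was called. Pdcd1lg2 separated the other way, at 0.610 and 0.478 TPM in KO LPS and 0.679 and 0.677 TPM in WT LPS. For these separations, and those of Fscn1 and Icosl, the share over all genes was not counted, so they carry no weight by themselves. For Cd40, the values of 370 and 343 TPM against 243 and 182 TPM gave a log2 difference of 0.76 (SE 0.21, interval 0.30 to 1.22, adjusted p = 0.0523 by limma), which is 1.68-fold by mean TPM. The adjusted p of Cd40 was between 0.0149 and 0.371 over its 14 alternatives, and 1 of them called it. For Ccr7 the fit with no filter gave a log2 difference of 0.99 (SE 0.29, adjusted p = 0.201). Over 13 alternatives its log2 difference was between 0.61 and 1.64 and its adjusted p between 0.0248 and 0.407.

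The other 4 of the 7 genes overlapped between KO LPS and WT LPS. The log2 difference was 0.21 for Cd80 (interval -0.36 to 0.78), 0.18 for Cd86 (-0.29 to 0.65), -0.06 for Cd83 (-0.48 to 0.37) and 0.04 for Cd274 (-0.31 to 0.39), with adjusted p of 0.734, 0.72, 0.921 and 0.928. For Cd274 the interval leaves out differences beyond 0.39 in either direction. The interval of Cd80 leaves room for a difference of up to 0.78. Pdcd1lg2, tested only with the filter removed, had a log2 difference of -0.121 (adjusted p = 0.57 by limma).

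**Figure D3:**
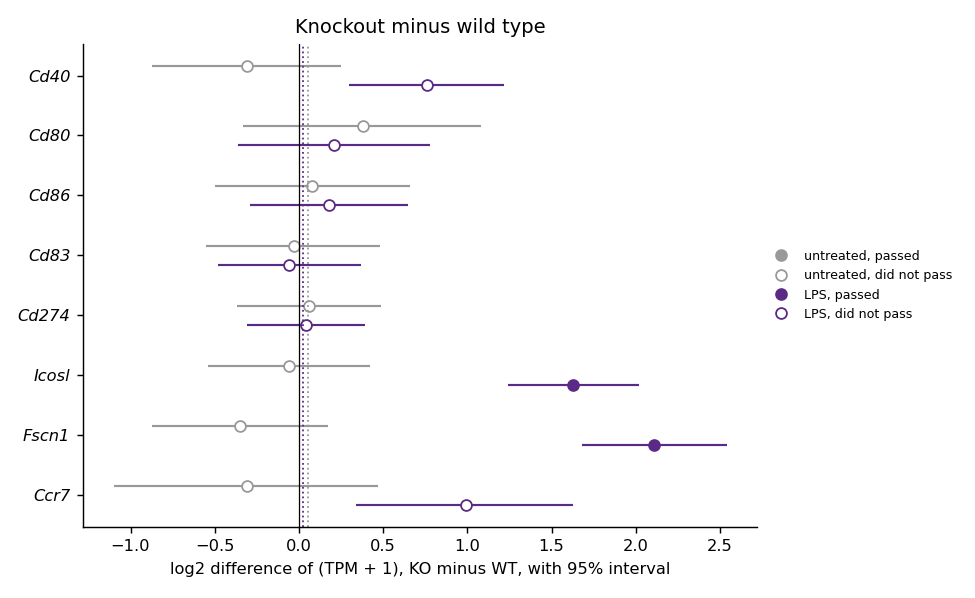
Log2 difference of KO from WT (horizontal axis, log2(TPM + 1) scale) of the 8 tested genes without and with LPS, with 95% intervals from limma. Filled points passed an adjusted p of 0.05. Only Fscn1 and Icosl are filled, at 2.11 and 1.63 with LPS.

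Some values of other lists moved alongside the KO LPS and WT LPS difference. Summed levels of 8 stromal and endothelial markers were 3.93 and 4.73 TPM in WT LPS and 7.80 and 10.4 TPM in KO LPS, and 3 of the 4 tested were called higher in KO, where 4.59% of all tested genes were called higher. Pecam1, an endothelial adhesion gene averaging 1.09 TPM, passed the filter through its KO LPS values of 2.12 and 2.30 TPM. Its call was lost without WT LPS replicate 2 (adjusted p = 0.0743) or KO LPS replicate 2 (0.0706). Col1a2, a fibroblast collagen, was called in 4 of 13 alternatives and lost the call on leaving out any of the 7 libraries (adjusted p = 0.051 to 0.227). Col1a1, which encodes the other chain of that collagen, was listed at 0 in both WT LPS libraries and at 1.18 and 1.56 TPM in KO LPS, a call lost without KO LPS replicate 2 (adjusted p = 0.0741) and with no filter (0.0756). The neutrophil-list sum was 288 to 413 TPM in WT LPS and 155 to 218 TPM in KO LPS, with S100a8 the largest part. S100a8 had a log2 difference of -1.04 (adjusted p = 0.0386 by limma), a call lost under 7 of 14 alternatives, with adjusted p up to 0.294. The dendritic cell identity sum was 27.4 to 32.9 TPM in WT LPS and 27.3 to 30.5 TPM in KO LPS. Of its 5 tested genes 1 was called lower in KO and 0 higher, beside 2.58% and 4.59% of all tested genes. This was Itgax, at 10.9 and 8.43 TPM in WT LPS and 3.43 and 3.51 TPM in KO LPS. Its log2 difference was -1.25 (adjusted p = 0.00436 by limma), called in 13 of 14 alternatives and lost with no filter (0.0543). The B cell sum was 84.8 to 86.6 TPM in WT LPS and 80.5 to 96.4 TPM in KO LPS. The T and NK cell sum, mostly Cd4, was 1.69 to 1.92 TPM against 2.14 to 2.32 TPM. Pax5 and Cd3g were listed at 0 in all libraries. The part of these values in the Fscn1 and Icosl results was not tested.

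Without LPS, no member was called between KO M0 and WT M0, and 0.00901% of all tested genes were called, which is 1 gene, Tgm2 itself (log2 difference -2.95, adjusted p = 0.000292). By unadjusted p under 0.05 there were 154 genes, 1.39% of all tested. The log2 differences of the members were -0.31 for Cd40 (interval -0.87 to 0.25), 0.38 for Cd80 (-0.33 to 1.08), 0.08 for Cd86 (-0.50 to 0.66), -0.03 for Cd83 (-0.55 to 0.48), 0.06 for Cd274 (-0.37 to 0.49), -0.06 for Icosl (-0.54 to 0.42) and -0.35 for Fscn1 (-0.87 to 0.17), each with an adjusted p of 1. Ccr7, listed at 0 in KO M0, had a log2 difference of -0.31 (interval -1.10 to 0.47, adjusted p = 1), which was between -1.69 and -0.16 over its alternatives. The KO side is a single library, so these intervals rest on the spread of other groups.

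The change with LPS was compared between genotypes by the difference of the 2 changes. For Fscn1 it was 2.46 (SE 0.30, interval 1.78 to 3.13, adjusted p = 0.00587 by limma), the 19th largest, and for Icosl 1.69 (SE 0.28, interval 1.07 to 2.31, adjusted p = 0.0188). These were the 2 of 7 genes called, where 1.37% of all tested genes were called, 0.847% higher and 0.523% lower. The difference was 1.07 for Cd40 (interval 0.35 to 1.79, adjusted p = 0.199) and for Ccr7 the fit with no filter gave an adjusted p of 0.424. For Cd83 and Cd274 it was -0.02 in each case, with intervals of -0.69 to 0.65 and -0.57 to 0.53. The Fscn1 call was lost when low values were kept (adjusted p = 0.107) and when WT M0 replicate 1 was left out (0.0745). The Icosl call was lost when low values were kept (0.121), and when leaving out WT M0 replicate 1 (0.115), WT M0 replicate 2 (0.0594), WT LPS replicate 2 (0.0523) or KO LPS replicate 1 (0.0553). Leaving out the WT LPS libraries removes this comparison and the comparison of genotypes under LPS, so neither can be given without them.

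The other costimulatory and checkpoint ligands changed with LPS in both directions. Of 18 tested genes of a list of 24, 7 rose and 5 fell in WT, and 7 rose and 5 fell in KO, beside 15.0% up and 29.6% down of all tested genes in WT and 13.8% and 24.3% in KO. The list's median log2 change was 0.32 in WT and 0.24 in KO, beside -0.21 and -0.24 over all genes. The rises include Tnfsf15 and Slamf1, which were below 1 TPM in every M0 library and passed the filter only through LPS values. The falls include Tnfsf14, which was below 1 TPM in every LPS library and passed only through M0 values. Lgals9, the galectin ligand of TIM-3, rose from 112 and 103 TPM in WT M0 to 575 and 439 TPM in WT LPS (log2 change 2.21, adjusted p = 3.33e-06) and by 2.50 in KO. Tnfsf15, the ligand TL1A, rose by 3.17 in WT and 4.66 in KO. The gene listed as 4632428N05Rik, which encodes the checkpoint protein VISTA, had log2 changes of -2.71 in WT and -2.60 in KO. Between genotypes under LPS 1 of the 18 was called higher and 2 lower, beside 4.59% and 2.58% of all tested genes. Havcr2, which encodes TIM-3, was at 7.75 and 6.82 TPM in WT LPS and 1.65 and 1.76 TPM in KO LPS (log2 difference -1.61, adjusted p = 0.000554), and was called in 14 of 14 alternatives. Tnfsf15 was at 13.6 and 10.3 TPM in WT LPS and 32.9 and 40.7 TPM in KO LPS (log2 difference 1.55, adjusted p = 0.00564), and its call was lost with a pseudocount of 0.1 (0.121), with no filter (0.0996) and on leaving out KO LPS replicate 2 (0.0525). Cd200r1, the receptor of the inhibitory ligand CD200, was lower in KO (log2 difference -0.74, adjusted p = 0.0307), a call lost under 7 of 14 alternatives. These included leaving out either WT M0 library (0.0595 each), WT LPS replicate 2 (0.263), and KO LPS replicate 1 (0.144) or 2 (0.0744).

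Of 25 tested genes of a dendritic cell maturation list of 29, 12 rose and 5 fell with LPS in WT and 13 rose and 4 fell in KO, against the same shares of all tested genes. Its median log2 change was 0.39 in WT and 0.68 in KO. The rises include Il12b, Il4i1 and, in WT alone, Mreg. These were below 1 TPM in every M0 library and passed the filter only through LPS values. The falls include Socs2, which was below 1 TPM in every LPS library and passed only through M0 values. The chemokine gene Ccl5 rose by 5.83 in WT and 5.87 in KO, and the IL-15 receptor chain Il15ra by 3.54 and 4.43. Between genotypes under LPS 2 of the 25 were called higher and 1 lower, beside 4.59% and 2.58% of all tested genes. Il12b, which encodes the p40 chain of IL-12, was at 11.3 and 7.68 TPM in WT LPS and 85.3 and 94.96 TPM in KO LPS, against at most 0.146 TPM in the M0 libraries. Its log2 difference under LPS was 3.14 (SE 0.22, adjusted p = 7.56e-05), called in 14 of 14 alternatives. Marcksl1, a membrane and actin protein, was higher in KO (log2 difference 0.94, adjusted p = 0.0125), a call lost with median-ratio scaling (0.0535), with no filter (0.123) and on leaving out WT LPS replicate 2 (0.152) or replicate 2 of KO LPS (0.0657). Cd200 was lower in KO (log2 difference -1.14, adjusted p = 0.0212), a call lost with a pseudocount of 0.1 (0.0834), with no filter (0.145) and when any of the 4 LPS libraries was left out (0.052 to 0.125).

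Of 18 tested genes that carry the CD40 signal, 1 was called between the genotypes, beside 7.16% of all tested genes. This was Nfkb1, higher in KO LPS than in WT LPS by 0.57 (adjusted p = 0.045), and 3 of 14 alternatives called it, with adjusted p up to 0.328. From M0 to LPS, 6 of the 18 rose and 4 fell in WT, and 5 rose and 2 fell in KO, beside 15.0% up and 29.6% down of all tested genes in WT and 13.8% and 24.3% in KO. The median log2 change was 0.33 in WT and 0.16 in KO. Traf5, an adaptor of CD40, rose by 1.75 and 1.81, and Map3k14, the kinase of the alternative NF-κB route, had -1.82 and -2.30. CD40 ligand (Cd40lg) and the CTLA-4 gene (Ctla4) were listed at 0 in all libraries, and Icos was at most 0.784 TPM. Cd28, the receptor of CD80 and CD86, was at 15.1 and 26.1 TPM in WT M0 and 27.9 TPM in KO M0, and at 1.12 to 1.63 TPM in the 4 LPS libraries.

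Among 13 tested regulators of surface level and transcription, 3 rose and 3 fell with LPS in WT and 4 rose and 3 fell in KO, beside 44.6% and 38.1% of all tested genes called in either direction. The median log2 change was -0.07 in WT and -0.32 in KO. The gene listed as March1, which encodes a ubiquitin ligase known to lower surface CD86 and MHC class II, rose by 3.37 and 2.68, while Cd86 mRNA fell. Ciita, the MHC class II transactivator, was the 1 of 13 called between genotypes under LPS, at 0.883 and 0.905 TPM in WT LPS and 2.75 and 2.58 TPM in KO LPS (log2 difference 0.95, adjusted p = 0.0221). That call was lost with no filter (0.0745) and when any of the 4 LPS libraries was left out (adjusted p = 0.0719 to 0.1).

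As a description of likeness, and with no test, each tested gene was correlated with all others over the 7 libraries, which share treatment and genotype groups. Cd83 and Cd274 mirrored each other (r = -0.996). The closest positive pairs were Cd40 and Cd274 (r = 0.969), Cd86 and Cd83 (r = 0.966) and Cd40 and Fscn1 (r = 0.959). Fscn1 and Ccr7 came next (r = 0.947), with Ccr7 at no more than 3.02 TPM. Icosl stood apart, with r between -0.136 and 0.428 against the other members. The genes named next were chosen after exclusions, so excluded genes may lie closer. The counts of genes above r = 0.99 may cover a wider set. Among the genes left, the most like Cd274 were Irgm2, Itgb8 and Malt1 (r = 0.999 each), and 190 genes passed r = 0.99 with Cd274. The most like Fscn1 were Abca7, Rdh12 and Hip1r (r = 0.997, 0.995 and 0.994), with 15 genes above 0.99. For Icosl none passed 0.99, and the nearest were Grap (r = 0.986), Stmn1 (r = 0.985) and Csrnp1 (r = 0.979). The nearest to Cd40 were Trim21, Map3k8 and Psme1, to Cd86 Pde12, Tbc1d5 and Galnt4, and to Cd83 Plec, Map2k3 and Tmem37, with r between 0.996 and 0.999. Those nearest to Cd80 were Hpcal1, D2hgdh and Eif3i, and to Ccr7 Morf4l2, Pla1a and Hap1, with r between 0.985 and 0.989.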

How the data were processed

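The deposited tables give 1 TPM value per gene and library, 7 tables of 23337 genes, each summing to 1000000. The file headers do not name the unit: the deposited values were read as TPM because of that total and because, unlike counts per total, they share no common smallest step. The submitters' processing notes name mm10 as the mouse genome used. The quantifier, aligner, annotation and use of strand were not given in the sources used here. Depth is unknown, since TPM keeps no read counts, so no count test or counting interval is given.

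Groups came from the labels' genotype and treatment. The 11096 genes averaging at least 1 TPM over the libraries were tested on log2(TPM + 1) with limma 3.58.1 in R 4.3.3: 1 mean per group over all 7 libraries, moderated with a trend (3 residual and 7.3 prior degrees of freedom), Benjamini-Hochberg adjustment, 5 comparisons. The code was tested on simulated data. Members and gene lists were chosen with earlier results of these data known. Genes of a list are named by the smallest adjusted p, at most 4 per list and comparison. Likeness lists the 3 highest Pearson r per member, among the genes left after exclusions that are not listed here. Some listed genes are not reported here. Positions are from GENCODE M21, promoters from RefSeq. Figures were drawn with matplotlib 3.10.9.

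Alternatives were median-ratio scaling, quantile normalization, a pseudocount of 0.1, no filter, a mean TPM of at least 5, the compared groups alone, WT LPS left out of the fit, a replicate block and each library left out.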

Additional observations from a re-analysis of the deposited data

Results flagged for a closer look

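The change with LPS differed between KO and WT in the test of the difference itself for 5 of the genes reported here. For the members these were Icosl, at 1.69 (adjusted p = 0.0188 by limma, called in 7 of 12 alternatives), and Fscn1, at 2.46 (adjusted p = 0.00587, 10 of 12). Among the listed genes Il12b was higher by 3.02 (adjusted p = 0.00497, 10 of 12), and Havcr2 had -1.84 (adjusted p = 0.0167, 8 of 12). Col1a1 had 1.79 (adjusted p = 0.046, 4 of 12), with both WT LPS libraries listed at 0, so that fitted value is no bound.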

How the results depend on the processing

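Of 539 log2 changes of the members under alternatives, 497 kept direction and call, 15 lost the call, 5 gained it and 22 changed sign, none of the last called under either setting. The replicate block raised the members called between KO LPS and WT LPS from 2 to 4, adding Cd40 (adjusted p = 0.0149) and Ccr7 (0.0413), which passed the filter only through LPS libraries, while all calls went from 795 to 1109 of 11096 genes, and gave Cd40 a difference of LPS changes of 1.24 (adjusted p = 0.0423). The labels number replicates without saying they were paired, and same-numbered libraries had correlations of deviations of 0.0804 to 0.298, so the block is not used. Members called for the difference of LPS changes dropped from 2 to 0 with no filter on low values, and leaving out libraries gave 0 to 2. Sign changes of that difference were -0.09 for Cd86 with the replicate block, 0.01 (median-ratio scaling) and 0.03 (replicate block) for Cd83, and 0.01 (median-ratio scaling) and 0.00 (quantile normalization) for Cd274. Leaving out each library gave, for KO LPS against WT LPS, -0.09 to 0.51 for Cd80, -0.09 to 0.45 for Cd86, -0.30 to 0.19 for Cd83 and -0.09 to 0.18 for Cd274; for KO M0 against WT M0, -0.12 to 0.28 for Cd86, -0.12 to 0.05 for Cd83 and -0.15 to 0.03 for Icosl; and for the difference of LPS changes, -0.47 to 0.13 for Cd80, -0.17 to 0.37 for Cd86, -0.27 to 0.22 for Cd83 and -0.15 to 0.12 for Cd274. The cause of these shifts was not tested.

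Genes called over the whole table ranged from 307 to 1109 for KO LPS against WT LPS (795 as reported, 307 with no filter, 423 without WT LPS replicate 2, and 520 or 399 when KO LPS replicate 1 or 2 was left out) and from 6 to 200 for the difference of LPS changes (152 as reported, 6 without WT M0 replicate 1, 67 without WT M0 replicate 2, 72 without either KO LPS library, and 10 with no filter). For KO M0 against WT M0 they ranged from 1 to 20. For LPS in WT, 1665 genes rose and 3284 fell as reported, against 2416 and 2348 with median-ratio scaling; in KO 1533 and 2700, against 2104 and 1854. Depth is unknown, and the single KO M0 library limits every comparison that uses it.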
